A study of Sus scrofa and Bos taurus with 31 samples.

Results

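Regions of open chromatin found only in the liver were described in pigs, with cattle as a second species. The assay was ATAC-seq, in which a transposase inserts sequencing adapters into DNA that is not wrapped around nucleosomes, and a peak is a stretch where these insertions pile up above the local background. Peaks of a species that shared at least 1 bp were merged into regions. A liver-only region had a peak in the lists of both liver libraries and in none of the lists of the other 7 tissues. In pigs, 4177 regions met this rule, out of 81622 regions open in both livers and 533944 merged regions in all. In cattle, 1793 regions met it, out of 60156 open in both livers and 504914 merged regions.

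The pig libraries came from P348 and P350, 2 castrated male Yorkshire littermates 6 months old, and the cattle libraries from M08 and M22, 2 intact male Line 1 Hereford animals 14 months old with the same sire. No animal was treated, and all samples were nuclei frozen from fresh tissue. The 2 liver libraries of each species were set against the libraries of spleen, hypothalamus, adipose tissue, lung, cerebellum, skeletal muscle and cerebral cortex, 14 in pigs and 13 in cattle, where cerebellum was available from M22 alone. Each tissue therefore had at most 2 replicates, which were 2 related animals of one breed and one sex, and the labels name whole tissue, not sorted cells.

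Hepatocytes make up most of the mass of the liver. They secrete albumin, clotting factors, complement and apolipoproteins into the blood, release and store glucose, turn ammonia into urea and make bile. Their identity is held by a small network of transcription factors that includes FOXA1 to FOXA3, HNF4A, ONECUT1 and members of the C/EBP family, which bind promoters and distant enhancers. Such bound elements are kept free of nucleosomes and appear as ATAC-seq peaks. Kupffer cells, sinusoidal endothelial cells, stellate cells and bile duct cells share the organ.

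By number of peaks, the liver lists were neither the longest nor the shortest. The pig livers held 113682 (P348) and 139307 (P350) peaks against 99960 to 217308 in the other libraries. The cattle livers held 103274 (M08) and 113228 (M22) peaks against 37204 to 221848. In covered bases the liver of P348 was the smallest pig list. It covered 64.1 Mb and the liver of P350 87.1 Mb, against 65.4 to 155.6 Mb in the other pig libraries. The gene levels used below are divided by this total. Read depth per library was not used here, and a more deeply sequenced library can yield a longer list with weaker peaks. The median fold enrichment of a peak over its local background, as the authors' peak caller gave it, was 3.81 in the liver of P348 and 3.10 in that of P350.

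A set of 6 sequences is given for promoters and regions on which the results turn. The sequences were read from the RefSeq copy of Sscrofa11.1 and are written 5′ to 3′. The first 3 are the 250 bases upstream of the transcription start site (TSS) of genes whose promoter held a liver-only region, given on the strand of the gene. They belong to GC, the vitamin D binding protein of plasma (chr8:68360263-68360512, minus strand), SLC2A2, the glucose transporter of hepatocytes and pancreatic beta cells (chr13:109614106-109614355, minus strand), and TDO2, the first enzyme of tryptophan breakdown (chr8:44708472-44708721, plus strand). Of the 250 bases, 109 in GC and 221 in each of SLC2A2 and TDO2 lie within the liver-only region itself. The last 3 are the central 300 bases of liver-only regions on the plus strand. They are the region with the highest fold in the weaker liver library, nearest to PLSCR5 (chr13:86996448-86996747), a region of the same rank list nearest to MEI4 (chr1:87971001-87971300), and the first of 4 regions in an intron of CPS1, the entry enzyme of the urea cycle (chr15:113214051-113214350). Capitals mark letters of a searched motif on either strand, GTTAATNAT (HNF1) in GC, AATCAATA (ONECUT) in TDO2 and near PLSCR5, TGANTCA (AP-1) near MEI4 and TGTTTAC (FOXA) in CPS1. The window of SLC2A2 held none of the 13 motifs searched.
GC promoter: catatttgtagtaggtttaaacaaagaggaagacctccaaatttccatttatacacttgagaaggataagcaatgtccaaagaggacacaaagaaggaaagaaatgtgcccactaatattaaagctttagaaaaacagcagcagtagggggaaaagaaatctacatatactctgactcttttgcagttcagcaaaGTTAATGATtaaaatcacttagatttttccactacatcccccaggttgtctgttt
SLC2A2 promoter: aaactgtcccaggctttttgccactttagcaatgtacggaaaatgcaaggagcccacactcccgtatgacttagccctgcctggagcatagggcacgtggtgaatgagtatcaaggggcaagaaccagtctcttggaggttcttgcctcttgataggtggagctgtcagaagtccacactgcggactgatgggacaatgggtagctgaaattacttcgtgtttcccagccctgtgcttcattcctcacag
TDO2 promoter: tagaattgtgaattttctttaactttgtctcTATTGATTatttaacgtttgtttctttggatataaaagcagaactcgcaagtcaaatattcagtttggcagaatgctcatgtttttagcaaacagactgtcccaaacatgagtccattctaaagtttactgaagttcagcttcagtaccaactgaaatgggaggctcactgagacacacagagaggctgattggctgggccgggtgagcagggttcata
region near PLSCR5: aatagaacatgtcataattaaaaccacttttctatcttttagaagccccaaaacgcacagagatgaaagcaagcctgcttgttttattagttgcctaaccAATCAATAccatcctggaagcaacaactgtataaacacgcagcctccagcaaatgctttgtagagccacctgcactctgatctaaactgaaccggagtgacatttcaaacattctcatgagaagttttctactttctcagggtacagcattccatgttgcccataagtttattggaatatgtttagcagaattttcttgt
region near MEI4: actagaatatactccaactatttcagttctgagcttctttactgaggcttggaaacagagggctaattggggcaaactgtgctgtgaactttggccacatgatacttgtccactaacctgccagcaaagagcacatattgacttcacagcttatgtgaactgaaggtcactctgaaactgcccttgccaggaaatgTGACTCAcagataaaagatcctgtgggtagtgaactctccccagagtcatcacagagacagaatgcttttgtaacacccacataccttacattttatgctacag
region in CPS1: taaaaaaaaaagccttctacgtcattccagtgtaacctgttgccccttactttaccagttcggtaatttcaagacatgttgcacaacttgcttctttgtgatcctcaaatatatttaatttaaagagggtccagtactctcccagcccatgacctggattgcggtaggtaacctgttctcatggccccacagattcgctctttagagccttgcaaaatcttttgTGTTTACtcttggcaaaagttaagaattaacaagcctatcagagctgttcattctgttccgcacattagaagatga

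Liver-only regions were short and mostly far from promoters. Their median width in pigs was 357 bp, with a range of 260 to 937 bp from the 10th to the 90th percentile. Liver had the narrowest set among the sets defined the same way for each pig tissue, whose medians ran up to 764 bp in cerebellum. All peaks of the liver libraries were also rather narrow, with medians of 402 bp (P348) and 485 bp (P350), against 464 to 636 bp in the other pig libraries. Of these regions, 209 (5.00%) were TSS proximal, which means at most 2 kb away from a TSS of a coding transcript. A further 67 (1.604%) lay near the TSS of a non-coding transcript, 2067 (49.5%) were genic and 1834 (43.9%) intergenic. By gene part, 1880 lay in introns, 260 touched a coding exon, 114 touched a UTR exon and the other 1923 touched no gene. The median distance to a coding TSS was 40781 bp, and 28.9% of the regions were farther than 100 kb from one. The mean GC content of the central 300 bases was 45.1%.

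The fold of the same region was usually higher in P348. The rule fixed that both livers had a peak, and folds are given here as a description without a test. The median fold was 4.86 in P348 and 3.67 in P350, and P348 had the higher value in 3696 of 4177 regions (88.5%). The folds of both animals rose together across regions, with a Spearman rho of 0.702 over 4177 regions of the same pair of libraries. In cattle, the medians were 5.81 in M08 and 4.05 in M22, with the higher value in M08 in 1586 of 1793 regions (88.5%). Over all peaks of the liver lists the median fold was also higher in P348 (3.81, against 3.10 in P350) and in M08 (4.15, against 3.51 in M22). The tilt is thus not particular to liver-only regions. Median width was 354 bp in cattle, also the narrowest of the cattle tissues.

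Being open in no other tissue was not the commonest state of a liver region, nor was it the rarest. In pigs 16833 of the 81622 regions open in both livers had a peak in all 14 other libraries, and counts then fell to 2446 regions with a peak in 1 other library before rising to 4177 with none. Cattle showed the same shape, with 11628, 1287 and 1793 regions. Just outside the rule, the pig regions with 1 other library had a median fold in the weaker liver of 3.51, against 3.62 for the liver-only regions. That other library was most often from lung (654), cerebellum (499) or adipose tissue (363). Regions shared by both livers and both libraries of a single other tissue were most often shared with lung (398), skeletal muscle (364) or spleen (333). Regions found in the liver of P348 and in no other list numbered 6694, and those of P350 numbered 5572, so that each exceeded the 4177 regions found in both.

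**Figure D1:**
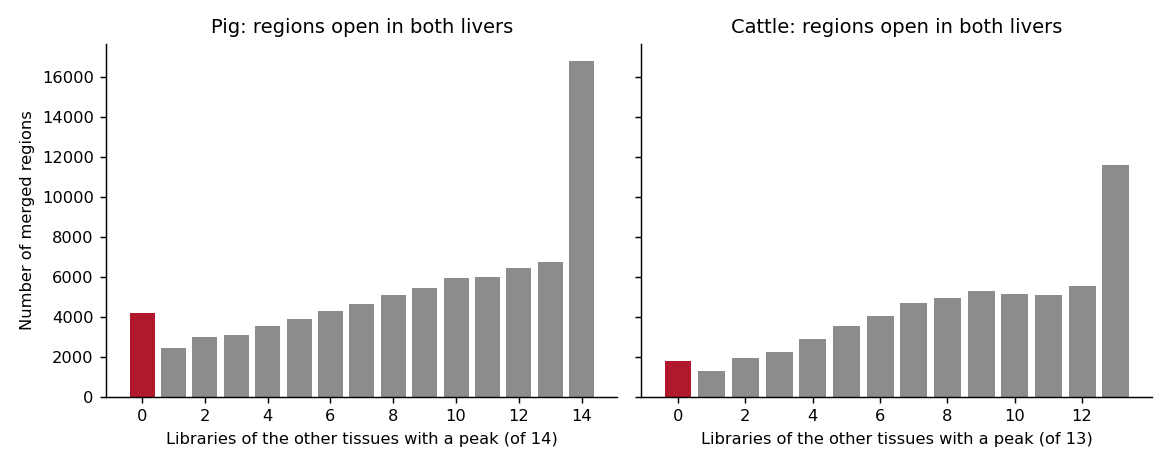
Number of merged regions open in both livers (vertical axis) by the number of libraries of the other tissues that also had a peak (horizontal axis), for pig on the left and cattle on the right. The red bars are the liver-only regions, 4177 in pig and 1793 in cattle, and the tallest bars are the regions open in every library, 16833 and 11628.

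The regions with the strongest signal were ranked by the fold of the weaker liver library. High folds in both animals follow from this order and are no result. The first was intergenic at chr13:86996414-86996781, 42157 bp from the TSS of PLSCR5, where P348 had a fold of 13.996 and P350 one of 12.6. The second covered the TSS of TDO2 at chr8:44708501-44708902, with folds of 13.3 and 11.6. The third lay in an intron of NRG3, a growth factor of the neuregulin family, at chr14:83919139-83919474 (12.996 and 11.6). Of these 3, 1 lay at the promoter of a gene with a known hepatocyte function.

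Another 4 of the 8 regions with the highest folds were also distal. Intergenic regions were found at chr1:87970953-87971348, 427697 bp from MEI4 (14.5 and 11.3), and at chr2:115779331-115779747, 52405 bp from the cytokine gene TSLP (15.5 and 10.9). Intronic regions were found in LOC100517025 at chr2:29379677-29380052, where the nearest coding TSS was that of DNAJC24 (13.9 and 10.7), and in CFAP54 at chr5:87016232-87016630 (14.7 and 10.5). In the 7 regions given, the fold was higher in P348. The 5 highest of cattle, on ARS-UCD1.2, were chr4:56965100-56965503 (16.1 in M08 and 10.2 in M22), chr8:37549438-37549756 (14.5 and 9.73), chr6:35097164-35097539 (15.8 and 9.73), chr9:25192976-25193293 (15.03 and 9.38) and chr8:55025044-55025383 (13.2 and 9.21). No cattle annotation was used here, so these are given by position alone.

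Some liver-only regions lay close together. With gaps under 10 kb, 443 pig regions formed 210 stretches of at least 2 regions, and 22 stretches held 3 or more. The longest by number held 4 regions in introns at the start of CPS1 (chr15:113213983-113224252). Their folds in P348 and P350 were 7.37 and 3.07, 3.90 and 3.78, 6.56 and 5.19, and 5.31 and 5.28, in order of position. The first of them is the one printed above with its FOXA letters. The widest stretch of 3 lay between genes at chr1:84504275-84521365, nearest to FAM46A, and the next in and beside DDAH1 (chr4:130599370-130616231). DDAH1 breaks down methylated arginines. In cattle 46 stretches held at least 2 regions, and the longest had 4 (chr17:2860573-2869337).

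The liver-only regions were spread over many genes. Of 20674 protein-coding genes, 2844 (13.8%) were the gene with the nearest TSS to at least 1 of them, 2029 of these to a single region and 312 to 3 or more. The genes with the most regions were long genes or genes beside long gaps, and most have no role particular to the liver. MAGI1, a scaffold protein of cell junctions, had 10 of its 237 nearest regions open only in liver, and the synaptic scaffold gene DLG2 had 9 of 378. NOVA1, a splicing factor of neurons, had 8 of 253, and the teneurin gene TENM4 8 of 532. CHAC2, CPS1, the phosphodiesterase gene PDE4D and the corepressor gene TBL1XR1 had 7 each, of 207, 194, 385 and 236. Regions open only in cerebellum, a larger set over all genes (19024), numbered 28 at TENM4, 27 at NOVA1 and 12 at CPS1. Those of skeletal muscle (10667 in all) numbered 27 at PDE4D and 13 at TBL1XR1, and those of cerebral cortex (7716 in all) 14 at DLG2. At MAGI1 and CHAC2 liver had the most. The regions of CPS1 at 928018 and 937668 bp from its TSS lay within ERBB4. All 8 regions of NOVA1 were intergenic, 214267 to 750518 bp from its TSS, while the 7 of PDE4D lay in its introns.

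Among these 8 genes, CPS1 was the one with a known liver role, and 0 of the 8 passed the limma test described further on, where 2 were higher at an unadjusted p under 0.05, as were 11.4% of all genes tested. The strongest region of NOVA1 (chr7:72242140-72242591) had folds of 10.9 and 9.20, and that of PDE4D (chr16:38583036-38583470) 9.98 and 7.75. When genes with at least 4 liver-only regions were ordered by share, an order chosen after the data were seen, G6PC came first. G6PC, which encodes the glucose-6-phosphatase that frees glucose into the blood, had 4 liver-only regions of 13 (30.8%), against 0.782% over all regions. BMPR2 followed with 4 of 23 (17.4%), then the pyrimidine breakdown gene DPYS with 4 of 28 (14.3%), and SLC2A2 with 6 of 48 (12.5%).

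Promoters open only in liver were few, and many belonged to genes of known hepatocyte function. A promoter was called open in a library when a peak came within 500 bp of a coding TSS. Both livers were open at 13818 of 20674 genes (66.8%), and 10263 promoters were open in all 16 libraries. At 60 genes (0.290%) the promoter was open in both livers and in no other library. Hepatocyte genes were taken from 8 lists, which cover plasma transport proteins, clotting, lipoproteins, the urea cycle and amino acid breakdown, glucose and growth, bile acids and drug metabolism, complement and acute phase proteins, and transcription factors, 117 gene models in all. Both livers were open at 96 of the 117 (82.1%). Of the 60 promoters, 18 belonged to these lists, or 15.4% of the lists. They included ABCB11, ABCC2, APOC3, APOH, C6, CRP, F10, F13B, G6PC, GC, HRG, MTTP, PLG, PROC, SLC2A2, TAT and TDO2.

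The 18 genes covered 7 of the 8 lists. Of the 16 transcription factor genes 0 were among them, which says little beside a share of 0.290% over all coding genes. A promoter peak in both livers was found at 14 of these 16 factor genes, beside 66.8% of all coding genes. ABCB11 and ABCC2 export bile salts and conjugates into bile, and MTTP loads lipid onto lipoproteins. The other 42 were not sorted by function. They held metabolic genes known from liver, such as UOX (urate oxidase), FABP1 (the liver fatty acid binding protein), AGXT, ADH4 and HSD17B13, but also genes with no such role, such as VPS41, TMED6 and ANKLE1, and 8 with only a LOC name. These examples were chosen after their values were seen. The same count gave 77 genes for cerebellum, 66 for skeletal muscle, 37 each for lung and spleen, and 19 for adipose tissue. It gave 18 for cerebral cortex and 0 for hypothalamus, and each of these tissues had 0 genes of the hepatocyte lists. Those 0 counts say little, since both livers were open at 96 of the 117 list genes. A promoter open in both livers cannot be counted for another tissue.

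**Figure D2:**
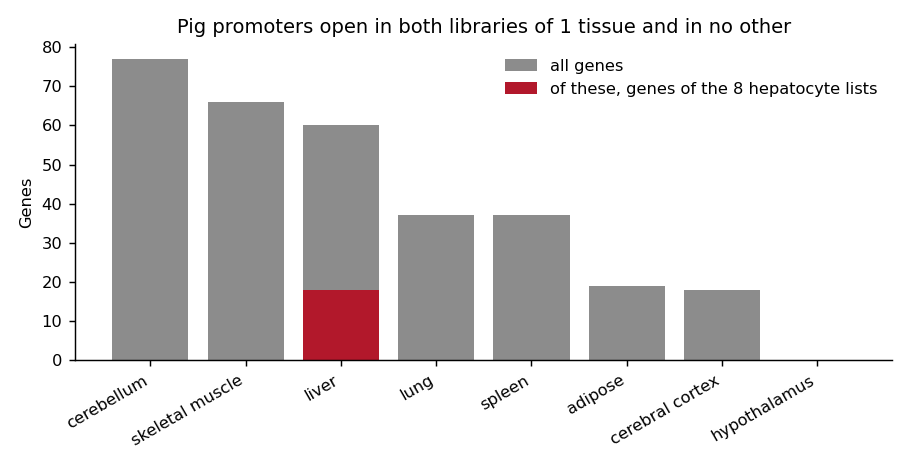
Number of pig genes (vertical axis) whose promoter had a peak in both libraries of 1 tissue and in no library of any other, by tissue, with the part that belongs to the 8 hepatocyte lists in red. Liver had 60 such genes, 18 of them from the lists, and the other 7 tissues had 0 to 77 with none from the lists. Most genes of the lists had a promoter peak in both livers and so could not be counted for another tissue.

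The 250 bases upstream of the 60 genes held motifs of liver factors in a minority of cases. The HNF1 letters (GTTAATNAT) were found at 5 of 60 genes (8.33%), against 1.15% of 20394 genes with such a sequence. The HNF4 letters (CAAAGTCCA) were at 3 (5%), against 0.530%, and the FOXA letters (TGTTTAC) at 4 (6.67%), against 3.77%. Both strands and all TSSs of a gene were searched, and a match of letters is not a bound site.

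Openness around each gene was then compared over libraries. For every gene, peak bases were summed over its body and 10 kb of flank at both ends, and expressed per Mb of peak bases in the library. The log2 of this level plus 5 was fitted with limma, and liver was set against the mean of the other 7 tissues. Fold changes on this scale understate the change of genes with low levels. Of 19906 genes tested, 130 (0.653%) were called higher in liver and 35 (0.176%) lower at an adjusted p under 0.05. The median difference of all genes was 0.13 on the log2 scale. In 108 of the 130 genes the level was higher in P348 than in P350. With the liver of P348 left out, 3 genes were called, 0 of them among the 130, although all 130 kept a positive difference, and with the liver of P350 left out 96 were called, 57 of them among the 130.

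The 130 genes were compared with the liver-only regions, which come from the same peaks, as a description. A liver-only region was nearest to 68 of the 130 and to 2 of the 35 genes called lower, beside 13.8% of all coding genes. A liver-only promoter was found at 14 of the 130, beside 0.290% of all coding genes. At 232 genes (1.17%) both livers lay above all 14 other libraries without overlap, and at 35 (0.176%) below them. Of the 130, 76 were separated in this way.

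Of the 117 gene models in the 8 hepatocyte lists, 21 (17.9%) rose in liver and 0 fell, beside 0.653% and 0.176% of all genes tested. The counts of the single lists below stand beside the same shares. A positive difference was seen in 112, and the median difference was 1.09. Both livers lay above all other libraries at 35 of the 117 (29.9%), beside 1.17% of all genes tested. A liver-only region was nearest to 55 of the 117 (47.0%), 96 regions in all, beside 13.8% of all coding genes. P348 exceeded P350 at 106 of the 117 (90.6%), and at 64.8% of all genes tested. Without the liver of P348 the lists held 0 called genes, and their median was 0.82 beside 0.02 for all genes. Without the liver of P350 they held 16, with a median of 1.36 beside 0.22. With animal as a block the count stayed at 21.

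**Figure D3:**
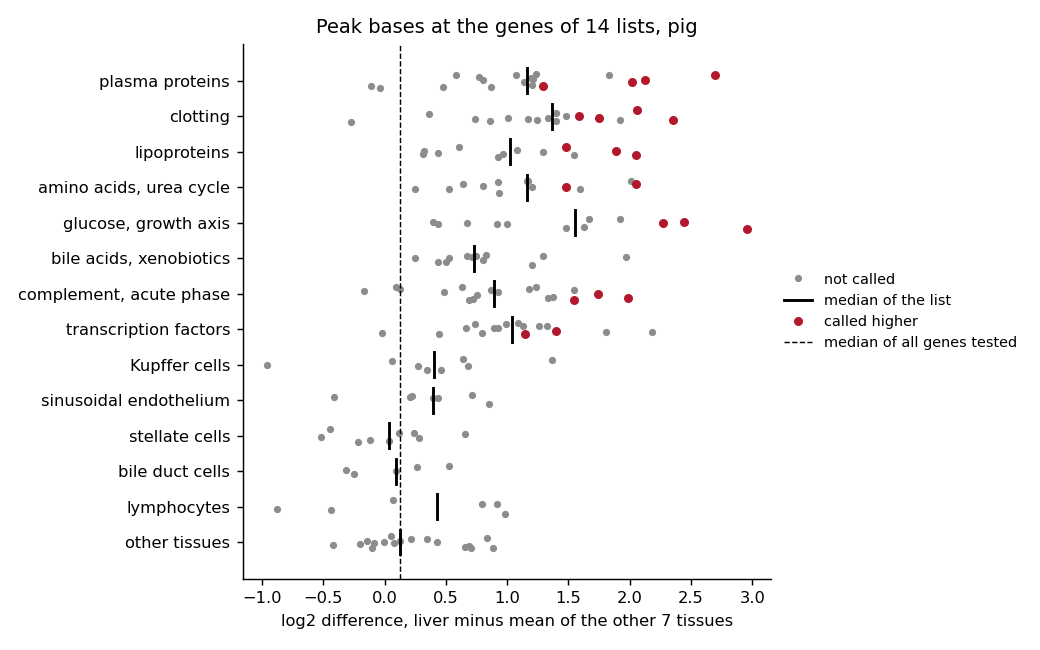
Difference in peak level between liver and the mean of the other 7 tissues (log2 scale, horizontal axis) for each gene of the 14 lists (rows), with called genes in red, the median of each list as a bar and the median of all genes tested (0.13) as a dashed line. The medians of the 8 hepatocyte lists lie between 0.73 and 1.55, and those of the 6 lists of other cells and tissues between 0.04 and 0.43.

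The plasma transport proteins opened most strongly at albumin. ALB (GeneID 396960, chr8:69643427-69663152), the main protein of plasma, had a level of 125 in P348 and 57.8 in P350, against 0 to 35.1 in the other libraries with a median of 11.5. Both livers lay above the highest other library, the hypothalamus of P348. The difference was 2.69 on the log2 scale (SE 0.36, adjusted p = 0.00627 in limma). The ALB promoter had a peak in 1 liver only and in 0 other libraries. A liver-only region lay in an intron at chr8:69649876-69651029, with folds of 3.04 and 3.16. Without the liver of P348 the adjusted p was 0.230. GC had 62.8 and 32.3 against 0 to 39.5, so that the cerebellum of P348 exceeded the liver of P350 (difference 2.13, adjusted p = 0.0116). Beside the promoter region, GC had intergenic liver-only regions at chr8:68286962-68287264 and chr8:68300261-68300609. HRG, the histidine-rich glycoprotein, had 42.8 and 21.4 against 0 to 9.91 and did not overlap (2.01, adjusted p = 0.0175). Of 18 models 4 were called, and the fourth was HP, haptoglobin. AFM, the lowest of the list, had 14.4 and 0 against 0 to 31.9 (-0.11, adjusted p = 0.946).

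Clotting genes rose at 4 of 16 members. FGB and FGA encode chains of fibrinogen, lie next to each other on chromosome 8, and share part of their windows. FGB had 73.8 and 56.5 against 7.62 to 20.7, a clear separation (difference 2.06, adjusted p = 0.00284). Its promoter had a peak in 1 liver only and in 0 other libraries. FGA had 54.4 and 31.6 against 0 to 26.4, and 7 of the 14 other libraries were at 0 (2.35, adjusted p = 0.0330). F11, the factor XI gene, had 66.0 and 34.6 against 0 to 30.6, with a liver-only region in an intron at chr17:9054238-9054933 (1.75, adjusted p = 0.0356). The fourth was KLKB1, plasma prekallikrein. SERPINC1, which encodes antithrombin, had 33.9 and 21.4 against 0 to 42.5, and the highest was the skeletal muscle of P350. Its difference was 1.01 (SE 0.41) with an adjusted p of 0.266, and the two-sided exact permutation p was 0.15. Its promoter was open in both livers and in 2 other libraries. F5, the lowest, had 31.1 and 11.5 against 6.75 to 57.4 (-0.27, adjusted p = 0.787).

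Of the lipoprotein genes 3 of 12 rose. APOA1, the main protein of high-density lipoprotein, had 47.9 and 34.9 against 2.35 to 21.6 (difference 1.48, adjusted p = 0.0204). Its neighbour APOA4 had 48.2 and 40.9 against 0 to 25.8 (2.05, adjusted p = 0.0215), and their windows overlap. A liver-only region lay 2614 bp from the TSS of APOA4 (chr9:44206686-44207171). APOH had 40.4 in P348 but 6.90 in P350, where the cerebral cortex of P350 reached 20.3, and 11 of the other libraries were at 0 (1.89, adjusted p = 0.0229). APOM was similar in all tissues, with 66.5 and 36.4 against 11.9 to 71.5 (0.32, adjusted p = 0.588).

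In amino acid breakdown 2 of 13 genes rose. TAT, tyrosine aminotransferase, had 29.7 and 20.7 against 0 to 19.0 (difference 1.48, adjusted p = 0.00651), with a liver-only region over its TSS (chr6:14582897-14583448, folds 5.28 and 5.30). TDO2 had 45.2 and 25.6 against 0 to 43.8, and the cerebellum of P350 lay above the liver of P350 (2.05, adjusted p = 0.0147). Both genes had a promoter open in liver alone. CPS1 had 94.1 and 40.6 against 0 to 82.7, with a difference of 2.01 that missed the threshold (adjusted p = 0.0641). The cerebellum of P348 held the value of 82.7. ASL, a urea cycle enzyme like CPS1, had 27.6 and 17.6 against 4.45 to 41.6 (0.25, adjusted p = 0.777).

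Genes of glucose release and storage had the highest median of the lists, 1.55, and 3 of 12 rose. SLC2A2 (GeneID 397429) had 82.9 and 56.7 against 0 to 35.5, with 6 of the other libraries at 0 (difference 2.95, SE 0.42, adjusted p = 0.00871). Its 6 liver-only regions lay at the promoter, in the gene, downstream at chr13:109575407-109575963 and chr13:109580789-109581271, and upstream in introns of the neighbouring gene TNIK. The upstream region at chr13:109656152-109656462 had folds of 6.62 and 5.26 and held the HNF1 letters. G6PC had 69.9 and 32.9 against 0 to 32.6 (2.27, adjusted p = 0.00868). In G6PC the liver of P350 was barely above the adipose tissue of the same animal.

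Bile acid and drug metabolism genes held 0 calls in limma among 12, with 7 higher at an unadjusted p under 0.05, which 11.4% of all genes tested also were, and a median of 0.73. CYP8B1, a bile acid hydroxylase, had the lowest difference, with 9.42 and 28.4 against 5.38 to 27.2 (0.25, adjusted p = 0.748). Complement and acute phase genes rose at 3 of 18. C8B, a part of the membrane attack complex, had 98.2 and 52.2 against 0 to 37.6 (difference 1.54, adjusted p = 0.0204). The C-reactive protein gene CRP is annotated as 2 adjacent models. The model that was called (GeneID 100620468) had 48.7 and 25.3 against 0 to 25.6 (highest in the cerebellum of P348), with a difference of 1.74 (adjusted p = 0.0374), and the other model holds the liver-only promoter. HAMP, which encodes the iron hormone hepcidin, had 16.6 and 12.1 against 4.65 to 40.5 (-0.17, adjusted p = 0.840).

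Liver transcription factors were open in many tissues and rose at 2 of 16. ONECUT1 had 130 and 67.6 against 3.18 to 62.4 (difference 1.40, adjusted p = 0.04005). Its 3 liver-only regions were intergenic, 169464 to 382841 bp from the TSS, and 2 of them (chr1:118530197-118530559 and chr1:118677156-118677436) held the ONECUT letters. NR1H4, the bile acid receptor FXR, had 113 in each liver against 8.88 to 104, highest in the cerebellum of P350 (1.15, adjusted p = 0.0230). The exact permutation p (two-sided) was 0.075 for NR1H4 and 0.05 for ONECUT1. FOXA2 had 56.2 and 49.9 against 0 to 61.8, where the hypothalamus of P348 lay above both livers (1.81, SE 0.66, adjusted p = 0.213, exact permutation p = 0.05, two-sided). A liver-only region lay 35850 bp from its TSS (chr17:30037554-30038685). CEBPA did not part the tissues, with 20.5 and 27.5 against 10.1 to 36.7 (-0.02, adjusted p = 0.984). Of the 3 markers of liver given for these samples, ALB thus separated both livers from all other libraries, while FOXA2 and SERPINC1 overlapped with them.

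Outside the lists, SERPINA7, which encodes the thyroxine-binding globulin of plasma, had 33.1 and 15.9 in the livers, and 13 of the 14 other libraries were at 0 (difference 2.42, adjusted p = 0.00284). ADH1C, an alcohol dehydrogenase, had 90.2 and 47.4 against 0 to 37.8 (2.29, adjusted p = 0.0204). PLA2G12B, a phospholipase family member, had 30.5 and 35.7 against 0 to 23.9 (2.14, adjusted p = 0.0167), with a liver-only intronic region holding the HNF1 letters (chr14:75776607-75776989). The 3 largest called falls among genes with a symbol followed. The slow muscle myosin gene MYH7 had 0 and 2.30 in the livers against 0 to 123, highest in the skeletal muscle of P350 (-2.11, adjusted p = 0.0195). GNAT3 had 0 and 2.88 against 0 to 48.6 (-2.06, adjusted p = 0.0455, and 0.0636 with animal as a block). LGI1, a protein secreted by neurons, had 3.93 and 0 against 5.58 to 64.2 (-1.95, adjusted p = 0.0243), and its 2 liver values lay below all others. The calls of GNAT3, LGI1 and MYH7 were lost in 9, 8 and 6 of 12 alternative settings. With the block, 22 genes were called lower.

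**Figure D4:**
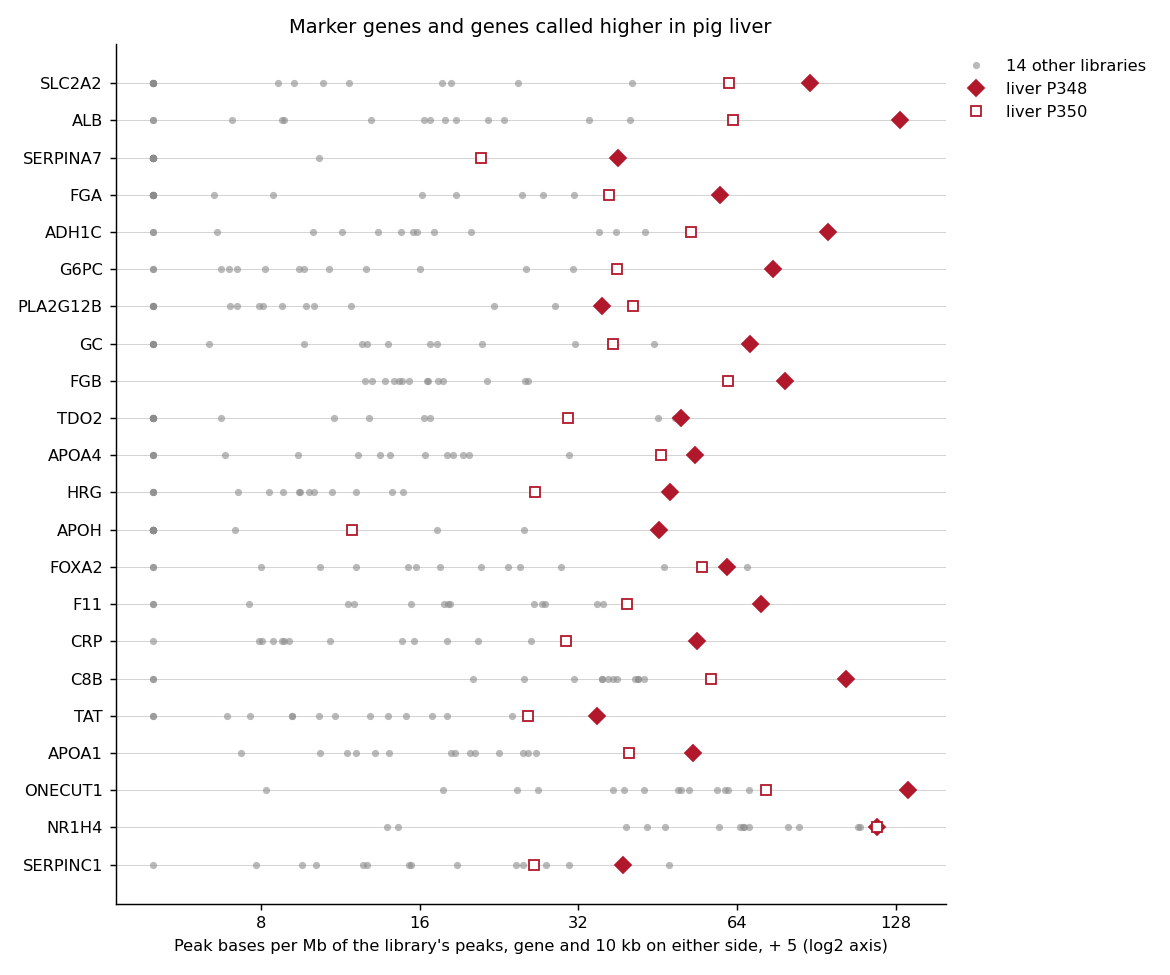
Peak level of the markers and the genes called higher that are named in the text (rows) in every pig library, as peak bases per Mb of the library's peaks in the gene and 10 kb on either side plus 5, on a log2 axis. Red symbols are the livers of P348 (filled) and P350 (open), and grey points are the 14 other libraries. ALB, FGB and HRG separate both livers from all other libraries, while FOXA2 and SERPINC1 do not.

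Genes of other cells held 0 calls at the settings used here, but a few under other settings. The 6 lists with 52 genes were for Kupffer cells, sinusoidal endothelium, stellate cells, bile duct cells, lymphocytes and the other 7 tissues. In limma 0 genes were called higher and 0 lower, beside 0.653% and 0.176% of all genes tested. With shares this low, 0 calls among 52 genes says little about these cells. At 1 gene both livers lay above all other libraries, beside 1.17% of all genes, and the median difference was 0.22. At an unadjusted p under 0.05, 8 of the 52 were higher and 3 lower. Of all 19906 genes, 2270 (11.4%) were higher and 3.89% lower at that limit. With lists of equal length 4 of them were called higher, beside 1.52% of all genes. With q under 0.0001 4 were called higher, beside 4.99% of all genes, and 1 lower. A liver-only region was nearest to 11 of the 52 genes (21.2%, beside 13.8% of all coding genes), and 0 had a promoter open in liver alone. The 8 Kupffer cell genes summed to 276 and 179 in the livers, against 116 to 346 in the other libraries, highest in the spleen of P348, and none was at 0 in a liver. The 6 lymphocyte genes summed to 223 and 170 against 51.6 to 485, and 1 of them, the B cell gene MS4A1, was at 0 in P350. Sums of the 7 sinusoidal genes were 309 and 315 against 169 to 384, and those of the 9 stellate genes 430 and 423 against 342 to 570. The 5 bile duct genes summed to 119 and 104 against 35.9 to 142. Markers of the other 7 tissues summed to 436 and 472 against 213 to 690. In whole tissue, fewer cells of a type and less open chromatin per cell cannot be told apart.

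The lowest members of these lists had no passing difference. C1QA, a complement gene of macrophages, had 8.73 and 6.55 against 5.78 to 38.3 (-0.96, adjusted p = 0.0905). STAB1, a scavenger receptor of sinusoids, had 17.9 and 12.7 against 2.67 to 61.7 (-0.41, adjusted p = 0.647), and HGF, a growth factor made by stellate cells, 14.05 and 19.3 against 7.61 to 94.3 (-0.52, adjusted p = 0.306). SOX9, a factor of bile duct cells, had 10.1 and 14.6 against 0 to 31.1 (-0.31, adjusted p = 0.827). MS4A1 had 3.12 and 0 against 0 to 51.0 (-0.88, adjusted p = 0.276), and the spleen gene TLX1 8.42 and 20.1 against 2.52 to 34.8 (-0.42, adjusted p = 0.691).

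Motifs of liver factors were more frequent in distal liver peaks. The central 300 bases of every pig peak farther than 2 kb from a coding TSS were searched on both strands for 13 motifs, between 83258 and 201117 peaks per library. The share of peaks with the motif was compared between the livers and the other libraries. The exact permutation test (two-sided) ran over all 120 choices of 2 of 16 libraries, where the smallest possible p is 0.00833. It treats libraries of one tissue as independent of each other, so its p-values do not measure the spread between tissues. Adjusted over the 13 motifs, 7 passed the threshold, each with an adjusted exact p of 0.0310. The mean GC content of these windows was 51.6% and 52.1% in the livers against 47.5% to 54.5% (exact permutation p = 0.742).

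HNF4 letters showed the largest ratio of the 13 motifs. They were in 0.883% and 0.633% of distal peaks of the livers of P348 and P350, against 0.351% to 0.402% in the other 14 libraries, a ratio of 2.03 between the means. The difference of the means was 0.386 percentage points, and 0.264 without P348 or 0.507 without P350. The C/EBP letters (TTGCGCAA) were in 0.127% and 0.102% against 0.0328% to 0.0936%. The DR1 letters of nuclear receptor dimers (CAAAGGTCA) were in 0.945% and 0.732% against 0.341% to 0.632%. For these 3 motifs and for the inverted repeat bound by FXR (IR1, GGTCANTGA, 1.35% and 1.22% against 0.901% to 1.13%) both livers lay above every other library. With the livers chosen within each animal (block), the adjusted exact p of IR1 was 0.0580.

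The other 3 motifs overlapped with 1 library each. HNF1 letters were in 1.14% and 0.856% of liver peaks against 0.470% to 0.983%, and ONECUT letters (AATCAATA) in 1.04% and 0.861% against 0.434% to 0.966%. In both cases the cerebellum of P348 lay between the livers. Without P348 the difference for HNF1 was 0.245 percentage points, against 0.371 with both animals. FOXA letters were in 4.82% and 4.01% against 2.51% to 4.21%, where the lung of P348 lay between the livers. The FOXA and ONECUT calls were lost with windows of 500 bases (adjusted exact p = 0.0619 and 0.0542). FOXA also lost its call when the share with the same letters in reversed order was subtracted, a check chosen after the data were seen (adjusted exact p = 0.0619). The letters of NR5A, ETS, MEF2, AP-1, CTCF and RUNX did not pass.

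The liver-only regions held the same 7 motifs at higher shares, and these shares are given without a test. HNF4 letters were in 94 of the 4177 regions (2.25%), against 0.430% of all merged pig regions. HNF1 letters were in 177 (4.24%) against 0.969%, ONECUT letters in 163 (3.90%) against 0.921%, and DR1 letters in 97 (2.32%) against 0.468%. FOXA letters were the most frequent, in 405 regions (9.70%) against 3.70%, but were also found in 7.66% of the regions open only in lung, a tissue that also uses FOXA factors. In reversed order the same letters were in 6.73% of the liver-only regions and 5.44% of all regions. IR1 letters were in 85 (2.03%) against 1.06%, and C/EBP letters in 8 (0.192%) against 0.0489%.

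Most liver-only regions held none of these letters. At least 1 of the 7 motifs was in 22.7% of them, 871 with 1 motif and 76 with more. The share was 27.6% in the 1045 regions with the highest fold in the weaker liver and 17.2% in the 1045 with the lowest, and 22.5% in TSS proximal against 22.7% in other regions. AP-1 letters, which are common in open chromatin of many tissues, were in 10.6% of liver-only regions and 10.8% of all regions.

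**Figure D5:**
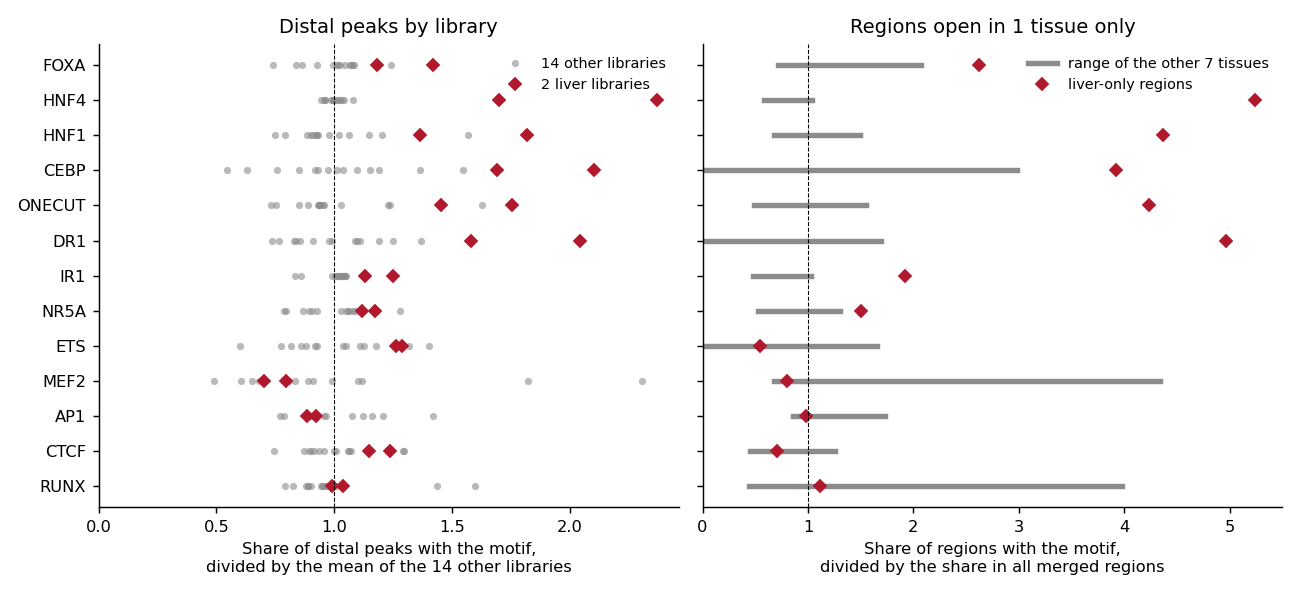
Left, share of distal pig peaks with each motif divided by the mean share of the 14 other libraries (horizontal axis), by library, with the livers in red. Right, share of liver-only regions with each motif divided by the share in all merged regions (red), beside the range of the regions open only in 1 of the other 7 tissues (grey bars). HNF4 reaches a ratio of 5.24 in the liver-only regions and FOXA 2.62.

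The balance of promoter and distal peaks in liver did not differ detectably from other tissues. Of all liver peaks 15.6% (P348) and 13.1% (P350) were TSS proximal, a mean of 14.4% ± 1.80 (SD, n = 2), against 7.45% to 16.7% and a mean of 12.6% ± 2.86 (SD, n = 14) in the others. The difference of 1.73 percentage points had an exact permutation p of 0.433 (two-sided, 120 choices). Liver-only regions were TSS proximal in 5.00%, and the sets open only in another single tissue in 0.503% (hypothalamus) to 5.19% (spleen).

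The lists of both livers resembled each other more than those of most library pairs. Their Jaccard index in bases (shared bases over the bases of either list) was 0.357 in pigs, the fifth highest of 120 pairs (exact one-sided p = 0.0417, by permutation of the tissue label over pairs). In cattle it was 0.295, the third highest of 105 pairs (exact permutation p = 0.0286). Most of these pairs join different tissues, so the ranks do not set the livers against the replicate pairs of other tissues. Between a liver and another tissue the index ran from 0.117 to 0.279 in pigs and from 0.132 to 0.253 in cattle. In pigs the mean index with liver was highest for spleen (0.263 over 4 pairs) and lung (0.254), and lowest for cerebellum (0.157). In cattle skeletal muscle (0.234) came before spleen (0.222). Cerebellum (0.151 over 2 pairs, from 1 library) and hypothalamus (0.152 over 4 pairs) were the lowest there and hardly differed. Unequal list lengths limit this index. Pig lists covered 155.6 and 147.8 Mb in cerebellum, 66.3 and 67.8 Mb in spleen, and 116.2 and 145.0 Mb in lung. Cattle lists covered 141.2 Mb in cerebellum, 32.1 and 17.5 Mb in hypothalamus, and 58.9 and 64.1 Mb in liver. How far length sets this order was not tested.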

How the data were processed

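ATAC-seq peak lists were analysed for 31 libraries, 16 from pigs and 15 from cattle, 1 list per library. According to the submitters' processing notes and the methods of the study, reads were handled with Trim Galore 0.4.5, BWA 0.7.17, SAMtools 1.10 and Picard 2.18.17 (the methods give these steps for ChIP-seq reads), and the authors called broad peaks with MACS2 at a q-value limit of 0.05, on Sscrofa11.1 for pigs and ARS-UCD1.2 for cattle. A shift of read ends is not given in the sources used here. The deposited score is a whole number that ranks peaks and was not used. The deposited fold is a ratio, the mean enrichment of a broad peak over its local background. The −log10 p-value and −log10 q-value of each peak were deposited by the authors, and the latter was used to filter peaks in alternatives. Depth was not used here, and q-values depend on it.

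Samples were grouped by species, tissue and animal from their labels. Members, gene lists, motifs and tests were chosen with earlier results of these data known. Peaks were merged at 1 bp, and regions on all 270 pig sequences were placed on the RefSeq annotation release 106 of Sscrofa11.1, with 20674 protein-coding genes. Of 168 list symbols 2 were not matched. Genes and sequences of cattle were not analysed here, for want of a cattle genome and annotation in the sources used. Gene levels (window 10 kb, pseudocount 5 peak bases per Mb) were fitted with limma 3.58.1 in R 4.3.3 over all 16 pig libraries with a term per tissue, adjusted by Benjamini-Hochberg over 19906 genes with a peak in any library. With 1 liver library left out, the other is assumed to vary like the remaining tissues. Other tests were exact permutation tests in Python 3.11.15 (numpy 2.4.6, pandas 2.3.3, scipy 1.17.1). The p-values measure the spread between libraries of 2 related animals. The permutation tests of liver against other libraries treat libraries of one tissue as independent of each other. The statistics were tested on simulated data.

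The genes named were the 3 markers given for liver, from each list up to 3 called genes with the largest difference and the lowest member, the 8 genes nearest to the most liver-only regions, and over all genes the 8 largest called rises and 3 largest called falls of genes with a symbol. Named regions were the 8 pig and 5 cattle liver-only regions with the highest fold in the weaker liver and the 3 longest stretches. Genes listed for liver-only promoters, the orders by share and the further called genes HP and KLKB1 were chosen after their values were seen. Some genes and regions that meet these rules are not reported here, and counts still cover them. The animal number in the labels pairs the libraries of different tissues, since it marks one animal. In the check of this pairing, deviations from tissue means correlated between samples of one animal at -0.214 to 0.152 (median 0.00485, 28 pairs, 3 over 0.1). Alternatives covered q-value limits, list length, merging, gene window, pseudocount, a filter on low values, peak bases times fold, motif window, reversed letters, the animal block and left-out animals.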

Additional observations from a re-analysis of the deposited data

How the results depend on the processing

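The tests above were run without a block, and the animal served as the replicate block in an alternative. With that block the genes called higher numbered 115 (130 without) and those called lower 22 (35 without), IR1 lost its call (adjusted exact p = 0.0580) and so did GNAT3 (difference -2.06, adjusted p = 0.0636), and no other call of a named gene or motif changed. Over all genes, 20 of the higher calls were lost and 5 gained, and 13 of the lower calls were lost. The number of liver-only regions was 6623 in pigs and 3080 in cattle when 1 other library was allowed, and 15941 to 17204 in pigs and 10286 to 18885 in cattle with 1 animal left out, where a single liver list sufficed. Their TSS proximal share was 5.76% with q under 0.0001, 2.27% within 500 bp of a TSS and 3.11% to 4.34% with 1 animal left out. The difference in TSS proximal share of peaks turned to -4.69 with q under 0.0001 (exact permutation p = 0.533). Without P348 or P350 the differences in percentage points were 0.264 and 0.507 for HNF4, 0.267 and 0.484 for DR1, 0.245 and 0.498 for HNF1, and 0.0423 and 0.0663 for C/EBP letters. The difference in RUNX letters turned to -0.0260 with q under 0.01. The overlap of the cattle livers lost its call when measured as the share of peaks overlapped by 1 bp (0.550, exact permutation p = 0.0857).

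Genes called higher were 74 with a pseudocount of 1, 236 with 20, 59 with a 50 kb window, 522 for peak bases times fold, 408 with q under 0.01, 941 with q under 0.0001, 300 with lists of equal length, and 3 to 96 without a liver library. Genes called lower were 20 with a 50 kb window, 97 for peak bases times fold, 75 with q under 0.01, 215 with q under 0.0001, and 1 to 20 without a liver library. In the same settings, hepatocyte genes called higher ran from 0 (without the liver of P348) to 50 (q under 0.0001, 43.1% of those tested beside 4.99% of all genes), and 0 were called lower in any. Genes of the 6 other lists called higher ran from 0 to 4 (q under 0.0001 and lists of equal length), with 1 lower at q under 0.0001. The median of all genes ran from 0.02 to 0.22. ALB fell below the threshold without the liver of P348 (2.17, adjusted p = 0.230, against 3.22 without that of P350) and with q under 0.0001 (3.14, adjusted p = 0.0671). FOXA2 passed with q under 0.01 (2.57), and SERPINC1 for peak bases times fold (1.53), with q under 0.01 (2.26) and with q under 0.0001 (3.31). The causes were not tested.

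Of 551 values for 46 other named genes, 422 kept direction and call, 88 lost the call (24 of them without the liver of P348, and most often GNAT3 with 9, LGI1 with 8, and APOA1, F11 and MYH7 with 6 of 12 settings each), 6 gained it (all CPS1) and 35 turned direction, all in genes that were not called. Across the fits without the liver of P348 or of P350, AFM ran from -1.09 to 0.87, F5 from -0.84 to 0.29, APOM from -0.078 to 0.71, ASL from -0.018 to 0.51, CYP8B1 from -0.36 to 0.85, HAMP from -0.34 to 0.000737, CEBPA from -0.20 to 0.15, TLX1 from -0.87 to 0.035, TENM4 from -0.25 to 0.12 and PDE4D from -0.17 to 0.30. With a 2 kb window they were AFM (0.15), HAMP (0.65) and CEBPA (0.11), and with 50 kb AFM (1.84), HAMP (0.62), CEBPA (0.51), SOX9 (0.14) and CHAC2 (0.19). With q under 0.01 they were F5 (0.054), CYP8B1 (-0.13), HAMP (0.45) and TENM4 (0.19). With q under 0.0001 they were F5 (0.15), APOM (-0.040), HAMP (0.73), CEBPA (0.21), C1QA (0.49), HGF (0.63), SOX9 (0.66), TLX1 (1.12) and TENM4 (0.19). With equal lists they were AFM (0.34), F5 (0.049) and HAMP (0.17), and for peak bases times fold CEBPA (0.21).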
